A study of Rattus norvegicus with 14 samples.

Results

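The 8 genes described here encode enzymes that carry long-chain fatty acids into mitochondria and break them down there: Cpt1a, Cpt2, Acadm, Acadl, Acadvl, Hadha, Hadhb and Acaa2. They were taken as every probe set (the group of short probes that stands for 1 transcript on an Affymetrix array) whose annotated symbol, or current synonym, was 1 of these names. This gave 11 probe sets of the 8740 on the array other than controls, and 8 of the 4736 genes with a single symbol. Hadha had 3 probe sets, Acadl had 2 and each other gene had 1. No enzyme of ketone body synthesis is among the 8, so the values below describe oxidation, and the ketone body genes found on the array are given further on.

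Liver RNA came from the left lateral lobe of rats on a magnesium-deficient diet (4 arrays, numbered 11 to 14), a magnesium-supplemented diet (5 arrays, 1 to 5) or a standard diet (5 arrays, 6 to 10). The labels name no strain, sex, age, magnesium content or feeding time, and no treatment other than the diet. They do not say that each array came from its own animal, and a p-value here speaks only of the spread among the 14 samples. Tissue was taken at necropsy, and the feeding state of the animals is not given in the labels.

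In liver, fatty acids are first joined to coenzyme A. Cpt1a, on the outer mitochondrial membrane, passes the chain to carnitine and is the step at which entry is regulated, while Cpt2, on the inner membrane, returns it to coenzyme A. The chain is then shortened in rounds: an acyl-CoA dehydrogenase fitted to chain length (Acadvl for very long, Acadl for long and Acadm for medium chains) makes the first double bond, the trifunctional protein of Hadha and Hadhb subunits carries out the next steps on long chains, and a thiolase such as Acaa2 releases acetyl-CoA. In fasting, liver turns much of this acetyl-CoA into ketone bodies, and the nuclear receptor Ppara raises transcription of many of these genes.

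RefSeq promoter windows of assembly GRCr8, each with 250 bases before an annotated start and 50 from it on, were found for 6 of the 8 genes, all but Acadl and Acaa2. The start is the 1 the table gives for a gene and need not be the only one. The windows of Cpt1a and Cpt2 are shown because the signals of these genes varied together more closely than those of any other pair among the 8, and that of Hadha because Hadha and Hadhb are transcribed away from each other out of 1 shared region. Capitals mark matches, on either strand, to the letters GGGCGG (a GC box) and, in Hadha, to CCAAT read on the opposite strand; the GC box in Hadha is also read on the opposite strand.

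Cpt1a: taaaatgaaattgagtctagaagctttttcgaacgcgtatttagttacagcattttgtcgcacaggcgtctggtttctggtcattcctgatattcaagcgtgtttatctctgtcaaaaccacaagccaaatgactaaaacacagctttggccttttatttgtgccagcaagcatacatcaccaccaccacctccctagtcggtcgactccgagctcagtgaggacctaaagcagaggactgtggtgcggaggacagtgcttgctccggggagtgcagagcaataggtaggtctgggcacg
Cpt2: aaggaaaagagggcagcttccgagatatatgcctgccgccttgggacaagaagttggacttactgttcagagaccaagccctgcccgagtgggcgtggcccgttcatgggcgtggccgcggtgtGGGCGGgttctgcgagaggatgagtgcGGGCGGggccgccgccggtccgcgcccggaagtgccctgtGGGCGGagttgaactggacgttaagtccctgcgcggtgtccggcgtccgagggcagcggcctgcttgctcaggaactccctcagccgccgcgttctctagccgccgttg
Hadha: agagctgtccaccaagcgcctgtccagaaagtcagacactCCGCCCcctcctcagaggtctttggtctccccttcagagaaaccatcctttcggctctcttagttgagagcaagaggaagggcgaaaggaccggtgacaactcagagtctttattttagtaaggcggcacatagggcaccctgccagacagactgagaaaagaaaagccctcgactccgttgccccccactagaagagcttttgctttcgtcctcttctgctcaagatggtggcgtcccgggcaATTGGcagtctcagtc

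The Cpt1a window lies at chr1:209995910-209996209 on the plus strand, the Cpt2 window at chr5:127910769-127911068 on the minus strand and the Hadha window at chr6:31907551-31907850 on the plus strand. The Cpt1a and Cpt2 windows lie wholly inside the annotated genes, chr1:209993881-210056329 and chr5:127893450-127911347. Both genes thus begin upstream of the start used, and these 2 windows need not hold their main promoters. The Hadhb window, at chr6:31907451-31907750 on the minus strand, shares 200 bases with that of Hadha. The motifs searched were AGGTCA (the core bound by many nuclear receptors), the direct repeat of that core with 1 base between its copies, GGGCGG (the GC box), CCAAT (the box of that name) and TATAAA (the TATA box), on both strands; the core also lies within the direct repeat. GGGCGG was in 4 of the 6 windows (Cpt2, Acadm, Hadha and Hadhb), and in 33.1% of 33465 RefSeq promoters of the same length. AGGTCA was in 2 of 6 (Acadvl and Hadhb), against 16.2% of all promoters. CCAAT was in 1 of 6 (Hadha), against 37.5%. The direct repeat and TATAAA were in 0 of 6, against 0.0538% and 14.2% of all promoters. Cpt2 held GGGCGG 3 times, starting at bases -126, -99 and -59 from the annotated start, and its window was 66.7% G or C. The Cpt1a window held none of the 5 motifs and was 48.3% G or C, below the median of 51.7% over all promoters. A match of letters describes these windows and says nothing of binding.

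The deposited signals were quantile normalised between arrays, since array medians ran from 18.0 to 34.4 units. Of the 11 probe sets 10 passed the filter on low signal (a mean over all arrays above 14.3 units), and all 8 genes kept at least 1. The second probe set of Acadl did not pass: on 13 of the 14 arrays it lay at the floor of 3.93 units, so it carries no measurement of diet. Hepatocyte markers on the list used here were measured for 9 of 10 genes, and their summed signal was 43432 to 45585 units on the deficient, 40875 to 46328 on the supplemented and 42061 to 46607 on the standard diet. Macrophage markers (6 of 11 measured, Csf1r dim) summed to 913 to 1205, 835 to 1454 and 739 to 1115 units in the same order of diets. By gene, 6 of 6 macrophage markers were higher for supplemented against standard (median log2 difference 0.32), against 47.8% of all probe sets. For deficient against supplemented 5 of 6 were lower (median -0.30), against 47.5% of all probe sets. Endothelial and stellate markers (6 of 11, Vwf and Des dim) summed to 264 to 325, 249 to 390 and 261 to 409 units, and cholangiocyte markers (2 of 6, Krt19 and Spp1 dim) to 49.8 to 68.6, 39.9 to 104 and 34.1 to 51.7 units. Markers of muscle, fat and pancreas (6 of 14) summed to 531 to 797, 744 to 1566 and 696 to 1029 units, with Ckm, Myh4, Acta1, Tnnt3, Fabp4 and Prss1 dim. The 6 measured were Cpt1b, Lep, Ins2, Clps, Amy2a3 and Cela1. The brightest were Lep (177 to 792 units over the arrays), Ins2 (84.0 to 408) and Amy2a3 (121 to 269). Whether these sums reflect neighbouring tissue was not tested. The part of other cells in the results was not tested, and fewer cells of a type cannot be told apart from less RNA per cell in such bulk samples. Supplemented array 5, standard array 10 and deficient array 13 stood apart from the rest in RNA quality or in correlation with the other arrays. The deficient against supplemented differences of Acadm and Acaa2, counts of probe sets called and differences that turned direction are also given without them. The array score, the correlations between genes and the counts over gene lists are not.

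The 2 carnitine palmitoyltransferases had similar profiles over the arrays and no diet difference beyond the spread between arrays. Cpt1a measured 509, 576, 460 and 1101 normalised units on deficient arrays 11 to 14, 480, 1176, 607, 336 and 379 units on supplemented arrays 1 to 5, and 484, 413, 709, 1480 and 265 units on standard arrays 6 to 10. Each diet held 1 array above 1000 units (deficient 14, supplemented 2 and standard 9), and the diets overlapped over most of their range. In limma's moderated test the log2 difference was 0.15 ± 0.46 (SE) for deficient against standard, -0.07 ± 0.43 for supplemented against standard and 0.22 ± 0.46 for deficient against supplemented. The 95% interval of the last ran from 0.592-fold to 2.28-fold, so the arrays cannot tell a change within that range from none. Cpt2 measured 397, 416, 351 and 563 units on the deficient, 407, 670, 417, 353 and 351 on the supplemented and 348, 341, 661, 686 and 288 on the standard diet. The same 3 arrays, with standard 8, were the highest. Its log2 differences were -0.03 ± 0.28, -0.03 ± 0.27 and -0.0043 ± 0.28 (SE) in the same order of comparisons, and the deficient against supplemented interval ran from 0.657-fold to 1.51-fold. For both genes the direction of each difference turned when single arrays were left out.

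Of the dehydrogenases, Acadm alone had a limma p under 0.05 before adjustment, with lower signal on the deficient diet. It measured 670, 656, 696 and 787 units on the deficient diet, 1051, 942, 1181, 647 and 1162 on the supplemented diet and 799, 1129, 896, 940 and 817 on the standard diet. All 4 deficient arrays lay below all 5 standard arrays after quantile normalisation, the nearest pair being 787 units (deficient 14) and 799 units (standard 6). On the deposited signals these diets overlapped, with deficient 14 at 807 and standard 6 at 782 units, and they also overlapped with arrays centred on their medians. By normalised signal 4 of the 5 supplemented arrays lay above every deficient array, while supplemented 4, at 647 units, was the lowest of all 14. Against the standard diet the deficient mean was 0.770-fold (log2 -0.38 ± 0.18 SE; limma adjusted p = 0.999 over the 5133 probe sets tested). Against the supplemented diet it was 0.719-fold (log2 -0.48 ± 0.18 SE, 95% interval 0.554-fold to 0.933-fold; limma adjusted p = 0.314). The supplemented against standard difference was 0.10 ± 0.17 (SE) on the log2 scale (limma adjusted p = 0.879). None of these passed the adjusted threshold.

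A measure of RNA quality moved with Acadm. The 3'/5' signal ratio of the Gapdh control probe sets, which is higher in degraded or incompletely copied RNA, was 1.84 ± 0.65 (SD, n = 4) on the log2 scale on the deficient diet, 0.71 ± 0.49 (SD, n = 5) on the supplemented and 1.64 ± 0.61 (SD, n = 5) on the standard diet. Over the 14 arrays the log2 signal of Acadm was lower where this ratio was higher, with Pearson's r = -0.62 (permutation p = 0.0155, adjusted p = 0.124 over the 8 genes) and Spearman's rho = -0.69 (permutation p = 0.0083, adjusted p = 0.0665), so neither passed after adjustment. Without deficient 13 and standard 10, the arrays farthest from the median ratio, r was -0.67, and with each diet's mean taken out it was -0.51. With the ratio as a covariate the deficient against supplemented difference of Acadm was -0.23 in place of -0.48, and with arrays centred on their medians it was -0.20. Deficient against standard, whose diets had closer ratios, it was -0.33 with the covariate. For the other 7 genes the adjusted permutation p against the ratio was 0.42 or higher by Pearson and 0.283 or higher by Spearman. With diet means taken out Acadm was not alone: r was -0.49 for Acaa2, -0.47 for Cpt1a and -0.44 for Hadhb, and nearest 0 for Acadl (-0.0093). The median absolute r with the ratio over the 14 arrays was 0.27 for the 8 genes and 0.34 for all 3073 tested genes. Without the 3 arrays that stood apart the deficient against supplemented difference was -0.41. The part of RNA quality in the Acadm difference was not tested beyond these values.

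The longer-chain dehydrogenases had no difference near the threshold. Acadl, by its measured probe set, gave 440, 799, 545 and 668 units on the deficient, 734, 978, 917, 478 and 307 on the supplemented and 690, 799, 1003, 661 and 472 on the standard diet. Supplemented 5, at 307 units, was the lowest of the 14, and the diets overlapped. Acadvl gave 342, 430, 385 and 455 units on the deficient, 441, 439, 422, 415 and 378 on the supplemented and 346, 367, 520, 461 and 339 on the standard diet. The supplemented arrays were the most alike (SD 0.090 on the log2 scale, n = 5, against 0.18 on the deficient, n = 4, and 0.27 on the standard diet, n = 5), and each diet's range overlapped the others. For Acadl the log2 difference was -0.23 ± 0.32 (SE) for deficient against standard, -0.17 ± 0.30 for supplemented against standard and -0.07 ± 0.32 for deficient against supplemented. For Acadvl these were 0.00047 ± 0.16, 0.06 ± 0.15 and -0.06 ± 0.16 (SE), so a deficient against standard change of Acadvl beyond 0.788-fold or 1.27-fold lies outside the 95% interval.

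The Hadha and Hadhb subunits of the trifunctional protein, whose genes share the promoter region printed above, did not separate the diets. By its brightest probe set Hadha measured 1022, 1224, 987 and 1013 units on the deficient, 867, 1110, 889, 712 and 1001 on the supplemented and 954, 929, 1285, 1051 and 938 on the standard diet. Hadhb measured 325, 468, 240 and 309 units on the deficient, 364, 397, 393, 306 and 354 on the supplemented and 291, 324, 361, 475 and 318 on the standard diet. The diets overlapped for both. Hadha was at 0.05 ± 0.15 (SE) on the log2 scale for deficient against standard, -0.18 ± 0.14 for supplemented against standard and 0.22 ± 0.15 for deficient against supplemented. Hadhb was at -0.10 ± 0.20, 0.05 ± 0.19 and -0.15 ± 0.20 (SE). Over the 14 arrays the subunits correlated with r = 0.41 (permutation p = 0.147, adjusted 0.294 over 28 pairs) and rho = 0.44 (permutation p = 0.121, adjusted 0.271); r was 0.59 within diets.

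The 3 Hadha probe sets did not give 1 answer. The first and second, which share a source sequence, correlated with r = 0.91 over the 14 arrays, while the third, made from another sequence, correlated with them at -0.15 and -0.38. The second measured 944, 1080, 992 and 876 units on the deficient, 661, 932, 737, 589 and 762 on the supplemented and 905, 859, 1252, 859 and 844 on the standard diet. Of the supplemented arrays only array 2, at 932 units, lay above the lowest deficient array, and the log2 difference was 0.42 ± 0.16 (SE) for deficient against supplemented (limma adjusted p = 0.332) and -0.36 ± 0.15 for supplemented against standard (limma adjusted p = 0.517). The third measured 99, 87, 56 and 172 units on the deficient, 188, 153, 121, 126 and 79 on the supplemented and 98, 91, 95, 186 and 81 on the standard diet. Its differences lay in the other direction, -0.42 ± 0.33 (SE) for deficient against supplemented and 0.29 ± 0.31 for supplemented against standard, and none passed the test (limma adjusted p = 0.582 and 0.797). The third probe set of Hadha and the measured one of Acadl carry the array maker's suffix for probes that can match more than 1 similar transcript, so which transcript they report is uncertain.

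**Figure D1:**
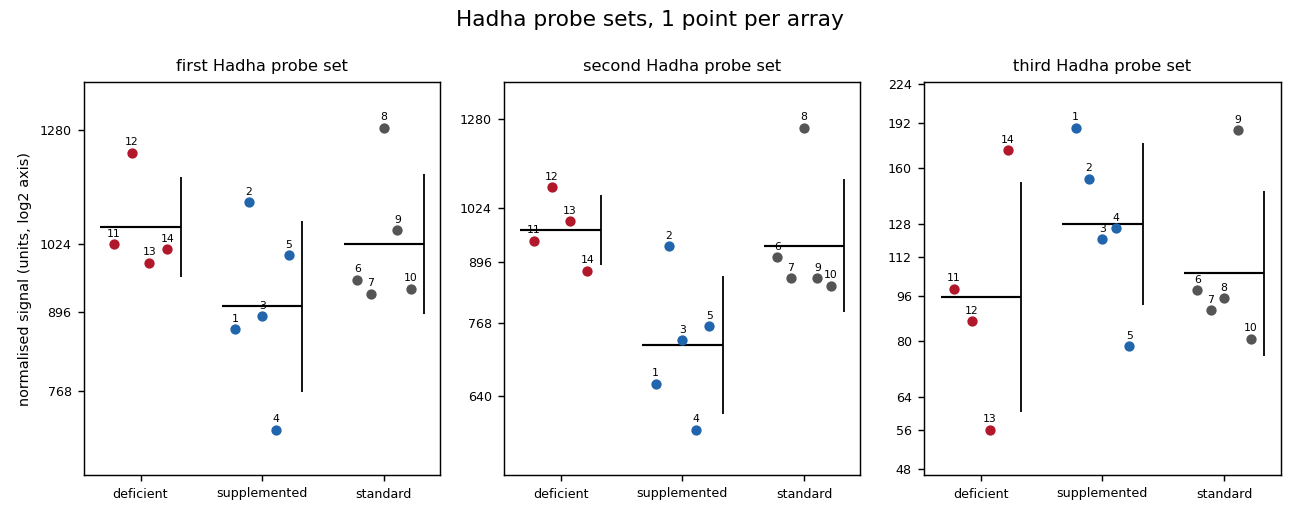
Normalised signal (units, log2 axis) of the 3 Hadha probe sets by diet, 1 point per array with its number. Horizontal bars are means and vertical bars ± 1 SD, both on the log2 scale (n = 4 deficient, 5 supplemented, 5 standard). In the second panel the deficient mean lies above the supplemented mean (log2 difference 0.42), and in the third it lies below (-0.42).

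Acaa2, a thiolase of the last step, had the smallest limma p of the 8 genes, for deficient against supplemented, with higher signal on the deficient diet. It measured 2437, 2641, 2274 and 3077 units on the deficient diet, 2022, 1759, 1949, 1645 and 1881 on the supplemented diet and 2056, 1961, 2017, 2992 and 2274 on the standard diet. Every deficient array lay above every supplemented array, with 2274 units (deficient 13) the lowest deficient and 2022 units (supplemented 1) the highest supplemented value, and the standard arrays reached into both ranges. The deficient mean was 1.40-fold the supplemented mean (log2 0.49 ± 0.14 SE, 95% interval 1.15-fold to 1.72-fold; limma adjusted p = 0.254). Deficient against standard was 1.16-fold (log2 0.22 ± 0.14 SE; limma adjusted p = 0.999), and supplemented against standard 0.827-fold (log2 -0.27 ± 0.13 SE; limma adjusted p = 0.547). None passed the adjusted threshold. Standard 9, the highest standard array, weighed on both comparisons with the standard diet: without it the deficient against standard difference was 0.32 and the supplemented against standard difference -0.17. Without deficient 14, the highest deficient array, the deficient against standard difference was 0.13. The deficient against supplemented difference ran from 0.41 to 0.55 with 1 array left out. It was 0.56 without the 3 arrays that stood apart and 0.67 with the Gapdh ratio as a covariate, and it was 0.74 with arrays centred on their medians.

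**Figure D2:**
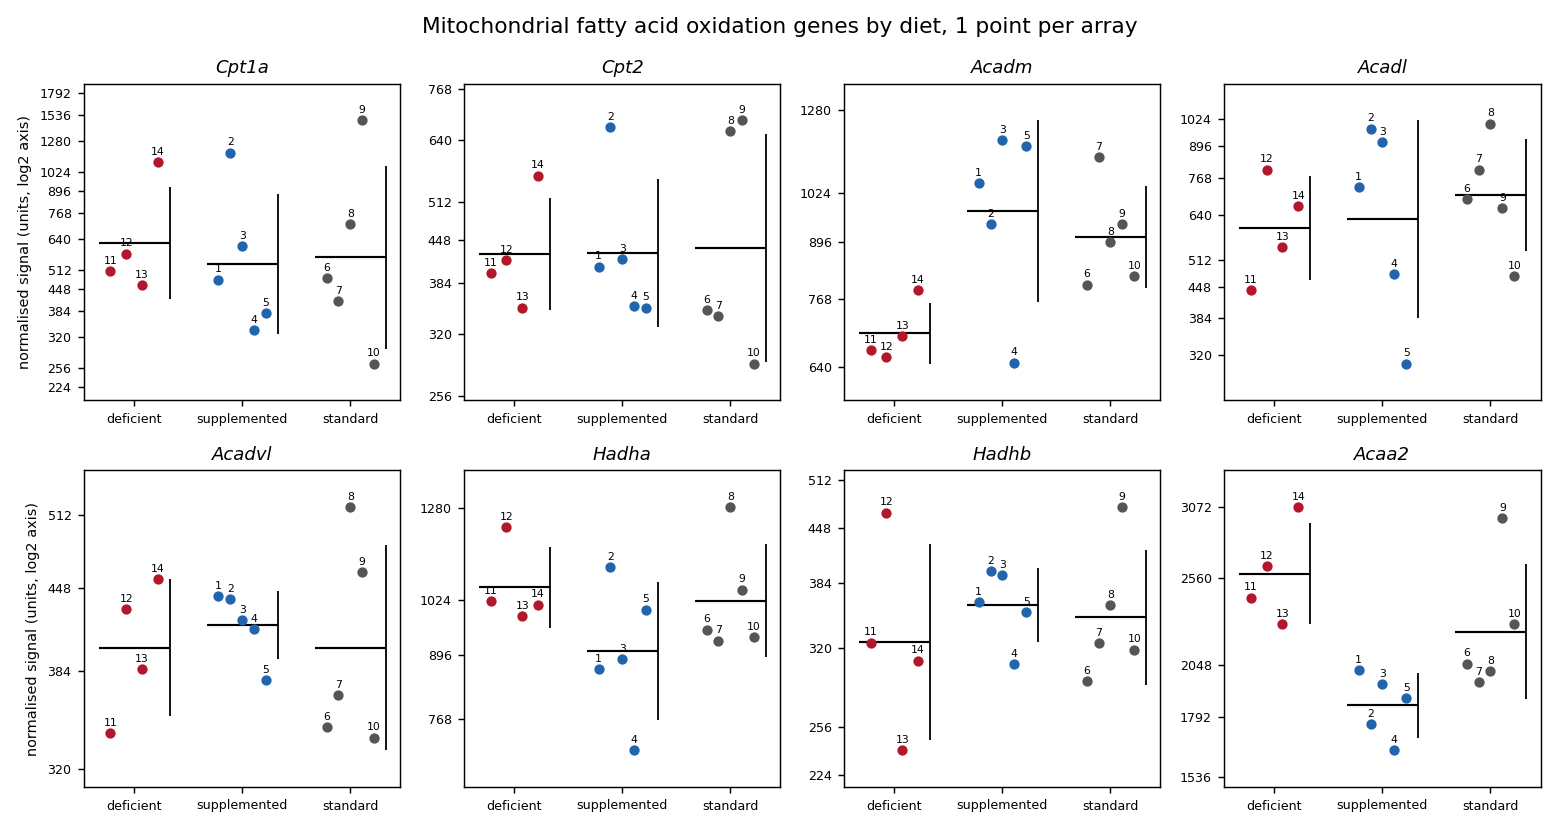
Normalised signal (units, log2 axis) of the 8 genes by diet, each by its brightest probe set, 1 point per array with its number. Horizontal bars are means and vertical bars ± 1 SD, both on the log2 scale (n = 4 deficient, 5 supplemented, 5 standard). The 4 deficient arrays lie below the 5 standard arrays for Acadm (787 units or less against 799 or more), which holds after quantile normalisation but not on the deposited signals. They lie above the 5 supplemented arrays for Acaa2 (2274 or more against 2022 or less), while the diets overlap for Cpt1a.

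Taking the 8 genes as a group, 4 were higher and 4 lower on the deficient than on the standard diet (median log2 difference -0.02), against 50.1% of all probe sets tested that were higher (median 0.00059). For supplemented against standard 3 were higher and 5 lower (median -0.05), against 47.8% higher over all probe sets (median -0.02). For deficient against supplemented 3 were higher and 5 lower (median -0.03), against 52.5% (median 0.02). With arrays centred on their medians in place of quantile normalisation these background shares were 58.5%, 36.4% and 65.6%, and the median of all probe sets was 0.17 for deficient against supplemented. Relative to that median Acadm was at -0.37 and Acaa2 at 0.57. Under median centring the median log2 difference of the 8 genes was 0.10, -0.19 and 0.22 in the same order of comparisons. Over all probe sets it was 0.06, -0.11 and 0.17. With the Gapdh ratio as a covariate the median of the 8 genes was 0.03, -0.22 and 0.22, against -0.0031, 0.00035 and 0.0041 over all probe sets. The medians of the group thus moved with the processing.

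None of the 8 genes passed limma's test at an adjusted p under 0.05 in any comparison. The background was as low: 0% of probe sets passed for deficient against standard, 0% for supplemented against standard and 0.0195%, 1 of 5133, for deficient against supplemented. The moderated F-test for any difference among the diets also called 0.0195%, the same single gene, Crispld2, which is not 1 of the 8. At an unadjusted p under 0.05, 1 of the 8 genes (Acadm) stood out for deficient against standard, where 3.04% of all probe sets did. For supplemented against standard it was 0 of 8, against 8.88%. For deficient against supplemented it was 2 of 8 (Acadm, lower, and Acaa2, higher), against 13.0%. By the F-test it was 2 of 8, Acaa2 (limma adjusted p = 0.471) and Acadm (limma adjusted p = 0.527), against 9.00%. These counts moved with the settings: over the 13 alternatives that left out no single array, the deficient against standard count was 0 in 8 (among them the deposited values, median centring and either RNA quality covariate) and 1 in 5, and the supplemented against standard count was 0 in 7 and 1 (Acaa2) in 6. The deficient against supplemented count was 2 in 11 and 1 in 2 of them, and Acaa2 was counted in all 13. Acadm was not counted with median centring, with either RNA quality covariate or without the 3 arrays that stood apart. The gene counted beside Acaa2 was Hadha with median centring and Cpt1a with the beta-actin ratio as a covariate. Each gene is counted by its brightest probe set. The second probe set of Hadha, which is not counted, also had an unadjusted p under 0.05 for supplemented against standard, for deficient against supplemented and by the F-test. Diets whose arrays did not overlap were found for 1 of 8 genes in deficient against standard (Acadm; 1.44% of all probe sets), 0 of 8 in supplemented against standard (1.81%) and 1 of 8 in deficient against supplemented (Acaa2; 4.95%). On the deposited signals these counts were 0, 1 (Acaa2) and 1 (Acaa2) of 8, and with arrays centred on their medians 0, 0 and 1 (Acaa2). With 8 genes, counts of 0, 1 and 2 are too few to set apart from these shares.

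**Figure D3:**
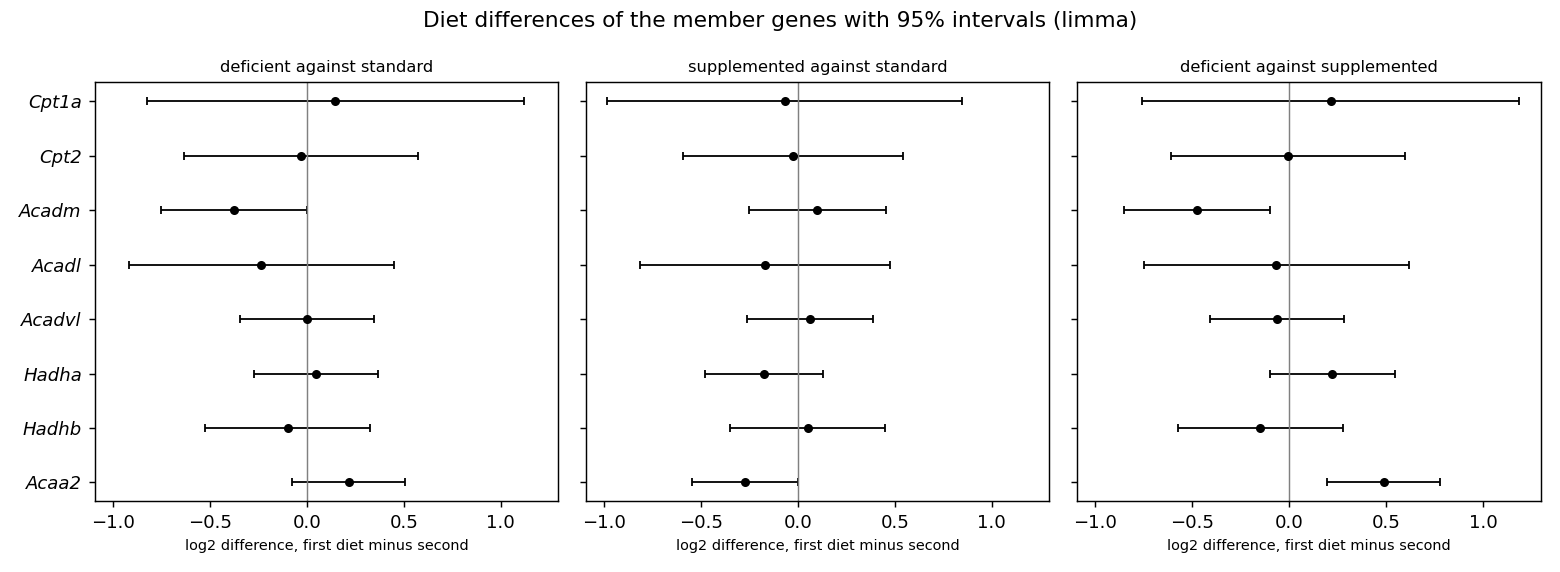
Log2 difference between diets (first diet minus second) of the 8 genes, each by its brightest probe set. Points are limma estimates from 1 model of 14 arrays and bars are 95% intervals without adjustment for the number of genes. For deficient against supplemented the intervals of Acadm (0.554-fold to 0.933-fold) and Acaa2 (1.15-fold to 1.72-fold) lie on opposite sides of 0, and the intervals of Cpt1a are the widest.

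Most of the variation of 7 of the 8 genes lay between arrays of the same diet, which held from 56.4% (Acadm) to 99.9% (Cpt2) of the summed squares. For Acaa2 it was 43.2%, so that more lay between diets. The shares over all tested genes are not given here, so these cannot be set apart from those of other genes. The within-diet SD on the log2 scale was 0.77 for Cpt1a, 0.52 for Acadl and 0.45 for Cpt2, above the median of 0.37 over all tested genes. It was 0.28 for Hadhb, 0.25 for Acadm, 0.20 for Hadha and Acadvl and 0.19 for Acaa2, all below that median. From the lowest to the highest of the 14 arrays Cpt1a spanned 5.59-fold, Acadl 3.27-fold and Cpt2 2.39-fold, against 2.52-fold for the median gene. The other 5 spanned from 1.53-fold (Acadvl) to 1.98-fold (Hadhb). Cpt1a, which encodes the regulated entry step, was thus the most variable of the 8 and Acaa2 the least by SD.

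Arrays that were high in 1 of the genes tended to be high in others. All 8 genes were above their own 14-array means on standard 9, 7 of 8 on standard 8 and supplemented 2, and 6 of 8 on deficient 12 and deficient 14. Only 1 of 8 was above its mean on deficient 13, supplemented 4, standard 6 and standard 10. A score for each array, the mean deviation of the 8 genes from their 14-array means, was -0.0071 ± 0.21 (SD, n = 4) on the deficient, -0.03 ± 0.27 (SD, n = 5) on the supplemented and 0.03 ± 0.31 (SD, n = 5) on the standard diet on the log2 scale. Each diet thus held both high and low arrays, and the diet means differed by far less than the spread within a diet. The score correlated with the Gapdh ratio at r = -0.28 over the 14 arrays and -0.46 within diets, and with the beta-actin ratio at -0.46 and -0.59; the part of RNA quality in these profiles was not tested.

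**Figure D4:**
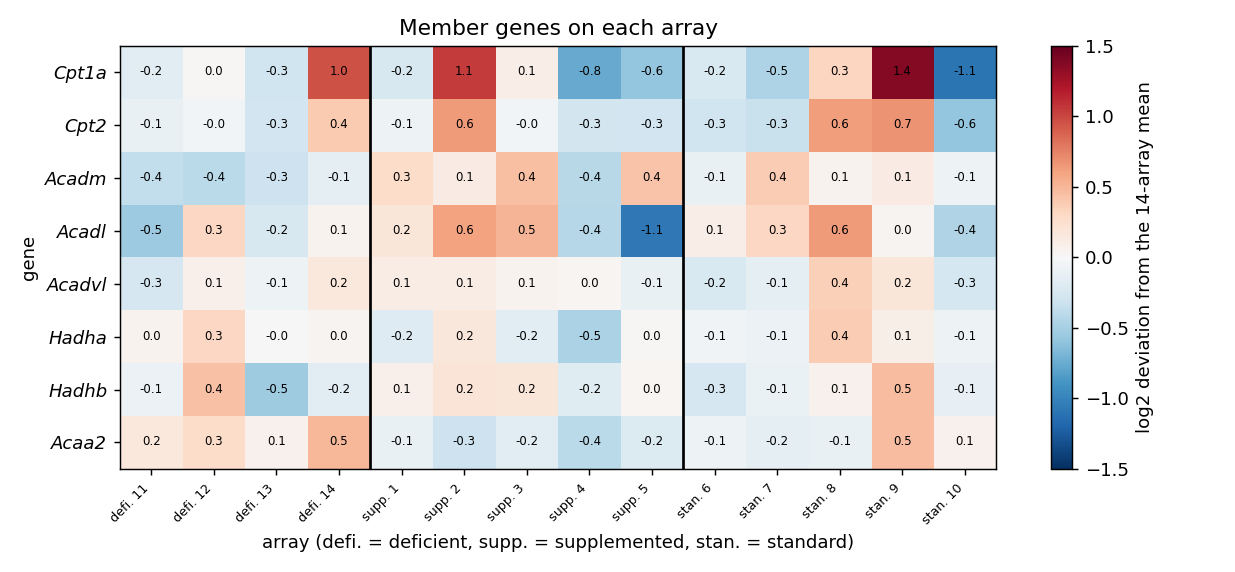
Log2 deviation of each gene from its 14-array mean (colour and printed value) on the deficient, supplemented and standard arrays, with black lines between the diets. Rows are genes and columns are arrays. All 8 genes are above their means on standard 9 and 1 of 8 is on deficient 13, supplemented 4, standard 6 and standard 10.

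Over the 28 pairs among the 8 genes the median Pearson correlation was 0.39, and 25 pairs (89.3%) were above 0. Over all 4720128 pairs of the 3073 tested genes the median was 0.0064 and 50.7% were above 0. With diet means taken out all 28 pairs were above 0. Pairs share the same 14 arrays, so these counts describe the arrays and are not independent of one another. The closest pair was Cpt1a and Cpt2, with r = 0.93 (permutation p = 1e-05, the smallest that the resamples can give, adjusted p = 0.00028 over 28 pairs) and rho = 0.90 (permutation p = 5e-05, adjusted p = 0.00112). Without standard 9 and supplemented 2 their r was 0.86, within diets it was 0.94, and with the Gapdh ratio taken out it was 0.92. Cpt2 and Acadvl followed, with r = 0.81 (permutation p = 0.00033, adjusted p = 0.00462), rho = 0.87 (permutation p = 8e-05, adjusted p = 0.00112), with r = 0.85 without the 2 arrays farthest from the median of Cpt2 and 0.83 within diets. Cpt1a and Acadvl passed by Spearman (rho = 0.71, permutation p = 0.00529, adjusted p = 0.0494) but not by Pearson (r = 0.66, permutation p = 0.011, adjusted p = 0.103). No other pair passed by either measure.

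Acadm and Acaa2, the genes with diet differences at an unadjusted p, correlated at r = -0.30 over the 14 arrays (permutation p = 0.305, adjusted p = 0.447; rho = -0.40, permutation p = 0.161, adjusted p = 0.277). The correlation did not pass the test, and with diet means taken out r was 0.32.

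**Figure D5:**
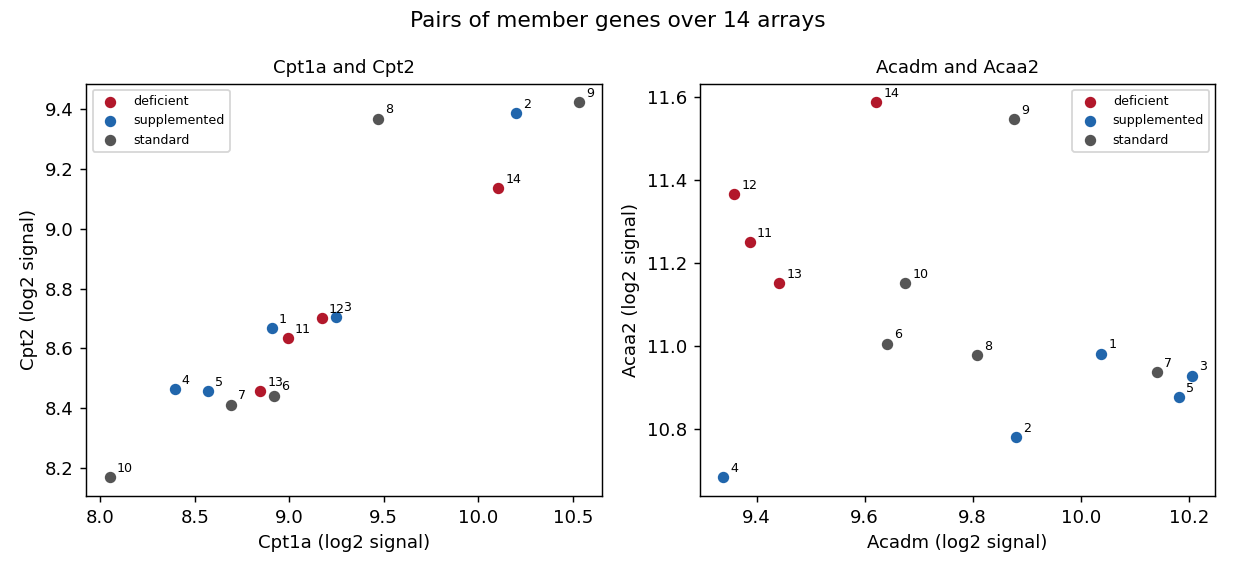
Log2 normalised signal of Cpt1a against Cpt2 and of Acadm against Acaa2, 1 point per array with its number, coloured by diet (deficient, supplemented, standard). Cpt1a and Cpt2 follow 1 line through all 3 diets (r = 0.93, n = 14), and the deficient arrays lie at low Acadm and high Acaa2 signal.

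Of the 3065 tested genes outside the 8, the 5 whose log2 signal correlated most closely with the score over the 14 arrays were Pck1 (r = 0.83), Ech1 (0.81), Eci1 (0.81), Lcat (0.78) and Gde1 (0.77). They were ranked by this value and carry no test. Pck1 encodes the cytosolic enzyme that commits carbon to glucose synthesis and is induced in fasting liver. Ech1 and Eci1 encode isomerases that let unsaturated fatty acids enter oxidation, and Lcat the plasma enzyme that esterifies cholesterol. Pck1 measured 1408, 1146, 922 and 2512 units on deficient arrays 11 to 14, 2073, 1826, 1717, 876 and 944 on supplemented arrays 1 to 5 and 723, 1443, 1725, 2785 and 572 on standard arrays 6 to 10. Its highest arrays, standard 9 and deficient 14, and its lowest, standard 10 and standard 6, were also high and low for Cpt1a or for most of the 8 genes. Such agreement follows from the ranking. It was not complete: on supplemented 1, the next highest for Pck1, only 4 of 8 genes were above their means and Cpt1a was at 480 units. Within diets its r was 0.86. The Pck1 diet difference was 0.17 ± 0.43 (SE) for deficient against standard, 0.18 ± 0.41 for supplemented against standard and -0.01 ± 0.43 for deficient against supplemented on the log2 scale.

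Other genes around the pathway were counted by lists. Of 10 tested genes (11 on the array, 14 listed) for fatty acid uptake, activation and carnitine handling, 6 were higher and 4 lower on the deficient than on the standard diet, 7 and 3 for supplemented against standard, and 3 and 7 for deficient against supplemented, with 0 called by limma. Slc25a20, the carrier that exchanges acylcarnitine across the inner membrane between the steps of Cpt1a and Cpt2, was at -0.15 ± 0.19 (SE) on the log2 scale for supplemented against standard (limma adjusted p = 0.842). Acsl3, an acyl-CoA synthetase, was at 0.41 ± 0.22 for deficient against standard (limma adjusted p = 0.999) and 0.47 ± 0.21 for supplemented against standard (limma adjusted p = 0.517); the comparisons share the standard arrays. Fabp1, the liver fatty acid binding protein, was at -0.25 ± 0.15 for deficient against supplemented (limma adjusted p = 0.497).

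The other mitochondrial oxidation genes, 9 tested of 13 on the array and 16 listed, were lower for supplemented against standard in 9 of 9 cases. Over all probe sets 52.2% were lower. The median was -0.27 on the log2 scale, against -0.02 over all probe sets, and Etfa (-0.0013) and Echs1 (-0.011) lay close to 0. For deficient against supplemented 8 were higher and 1 lower (median 0.13, against 0.02 and 52.5% higher over all probe sets). For deficient against standard 2 were higher and 7 lower (median -0.12, against 50.1% higher over all probe sets). With the Gapdh ratio as a covariate 9 of 9 were lower for supplemented against standard (median -0.15), against 49.9% of all probe sets. For deficient against supplemented 6 of 9 were then higher (median 0.05), against 50.7% of all probe sets. Without the covariate none was called or reached an unadjusted p under 0.05 in any comparison, and these genes were among lists chosen with results of these data known. Acads, the short-chain dehydrogenase, was at 0.31 ± 0.21 (SE) for deficient against supplemented (limma adjusted p = 0.542) and -0.27 ± 0.20 for supplemented against standard (limma adjusted p = 0.713). Echs1, the short-chain enoyl-CoA hydratase, was at 0.33 ± 0.25 for deficient against supplemented, and Decr1, the dienoyl-CoA reductase, at -0.53 ± 0.40 for supplemented against standard (limma adjusted p = 0.573 and 0.706).

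Of 7 listed ketone body genes, 3 were named on the array and tested: Bdh1, which interconverts acetoacetate and hydroxybutyrate, Acat1, the mitochondrial acetoacetyl-CoA thiolase, and Slc16a1, a carrier of ketone bodies and lactate. The other listed genes were not analysed here. Bdh1 was at 0.33 ± 0.30 (SE) for deficient against supplemented and -0.30 ± 0.28 for supplemented against standard (limma adjusted p = 0.659 and 0.758). Acat1 was at 0.07 ± 0.25 for deficient against standard (limma adjusted p = 0.999). Slc16a1 was at -0.70 ± 0.38 for deficient against supplemented (limma adjusted p = 0.439) and 0.57 ± 0.36 for supplemented against standard (limma adjusted p = 0.660), and both differences turned direction once the model held the Gapdh ratio. None passed the test.

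Regulators of the pathway, 11 tested of 17 listed, had 0 calls. Ppara was at -0.69 ± 0.28 (SE) on the log2 scale for supplemented against standard (limma adjusted p = 0.510), with means of 16.8 units on the supplemented and 27.1 on the standard diet, close to the filter. Acaca and Acacb encode acetyl-CoA carboxylases, whose product malonyl-CoA inhibits Cpt1a. Acaca was at -0.70 ± 0.32 for deficient against supplemented (limma adjusted p = 0.373) and 0.72 ± 0.30 for supplemented against standard (limma adjusted p = 0.515). Its means were 19.7 units on the deficient, 32.0 on the supplemented and 19.4 on the standard diet. With the Gapdh ratio as a covariate these Acaca differences were -0.28 and 0.38. Acacb was at -0.32 ± 0.37 for deficient against supplemented (limma adjusted p = 0.724) and 0.79 ± 0.35 for supplemented against standard (limma adjusted p = 0.536). For deficient against standard Acacb was at 0.46 ± 0.37 (limma adjusted p = 0.999). Pdk2, a kinase that turns down pyruvate use, was at 0.66 ± 0.29 for deficient against supplemented (limma adjusted p = 0.369) and at -0.04 in the model that held the Gapdh ratio.

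The peroxisomal and microsomal oxidation genes, 11 tested of 16 listed, were lower for supplemented against standard in 9 of 11 cases (median -0.36, against 52.2% lower and a median of -0.02 over all probe sets) and higher for deficient against supplemented in 7 of 11 (median 0.29, against 52.5% higher and a median of 0.02), with 0 called. The Gapdh ratio differed between these diets, as given above; with it as a covariate 10 of 11 were lower for supplemented against standard (median -0.35) and 9 of 11 higher for deficient against supplemented (median 0.33), against 49.9% and 50.7% of all probe sets. Acaa1b, the peroxisomal thiolase, resembled Acaa2 in direction: it was at 0.80 ± 0.24 (SE) for deficient against supplemented (limma adjusted p = 0.264), where its arrays did not overlap, 211 to 298 units on the deficient against 98.1 to 181 units on the supplemented diet. Supplemented against standard it was at -0.63 ± 0.23 (limma adjusted p = 0.492). Abcd3, which carries acyl-CoA into peroxisomes, was at 0.92 ± 0.34 for deficient against supplemented (limma adjusted p = 0.312) and -0.89 ± 0.32 for supplemented against standard (limma adjusted p = 0.492). The 2 comparisons share the supplemented arrays, and neither gene passed the adjusted threshold.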

How the data were processed

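The deposited intensity values are probe set signals on a linear scale for 14 Affymetrix arrays. Every array had a trimmed mean (2% off each end) of 150.3 units, which shows a global scaling shared by all arrays. The labels' protocols give Trizol and RNeasy extraction and about 5 µg of total RNA per target. The program behind the signals is not given in the sources used here, and neither are detection calls. Dim signals therefore cannot be placed above or below background, and precision is limited by how many arrays there are. No pair of arrays held identical values.

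Sample titles gave the diet and the number of each array. The table held 8799 probe sets, of which 59 controls were left out. Because array medians differed by 1.91 times, log2 signals were quantile normalised, with a floor at the pooled 20th percentile (3.93 units). Probe sets with a mean above the pooled 40th percentile (14.3 units) were kept, which left 5133. Symbols came from the platform annotation: 7006 probe sets had 1, 308 had several and 1426 had none. The probe set with the highest mean stood for a gene. Diets were compared with limma 3.58.1 in R 4.3.3 (lmFit, eBayes with trend, 1 model of 3 diets, two-sided, Benjamini-Hochberg over all probe sets tested, threshold 0.05). A fold change of a dim probe set is understated by the floor. Correlations over arrays used 100000 permutations, two-sided. The test was checked on simulated data.

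The 8 genes and all lists were chosen with earlier results of these data known. Named genes outside the 8 were, from each list, the 2 with the smallest unadjusted p of each comparison, and Bdh1, Acat1, Acads, Ppara and Slc25a20 where measured; those that add no difference are counted only, and some listed genes are not reported here. Alternatives covered scaling, floor, filter, model, RNA quality covariates and arrays left out.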

Additional observations from a re-analysis of the deposited data

Results flagged for a closer look

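Of the 24 groups of arrays examined (8 genes on 3 diets), 2 held an array far from the others of its diet, where chance flags about 1 in 20 groups. Cpt2 on supplemented array 2 was at 9.39 on the log2 scale, with the next supplemented array at 8.71, a gap of 0.732 of the range of that diet. Hadha on deficient array 12 was at 10.26, with the next deficient array at 10.00, a gap of 0.835 of the range. Supplemented 2 was also the highest supplemented array for Cpt1a, Acadl, Hadha and Hadhb, and deficient 12 the highest deficient array for Acadl and Hadhb. No explanation was tested.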

How the results depend on the processing

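None of the 8 genes passed an adjusted p under 0.05 in any comparison under any of the 27 settings tried, so no call could be lost. In all, 68 of 648 values of the 8 genes under the alternatives, and 16 of 802 of the other pathway genes, turned direction without reaching the threshold; the cause was not tested. Acadm stayed lower and Acaa2 higher for deficient against standard and for deficient against supplemented under every alternative, and Acaa2 lower for supplemented against standard. Log2 differences that turned direction follow. On the values as deposited they were Cpt2 0.00804 for deficient against standard, and Cpt2 0.0125 for supplemented against standard. With arrays centred on their medians they were Cpt2 0.0788 for deficient against standard, and Acadm -0.0957, Acadvl -0.0908, Hadhb -0.0950 and Slc27a2 -0.0909 for supplemented against standard, and Cpt2 0.23, Acadl 0.17, Acadvl 0.21, Hadhb 0.0868 and Fabp1 0.0736 for deficient against supplemented. With array weights they were Acadvl -0.0295, Hadhb 0.00716 and Acat1 -0.0110 for deficient against standard, and Cpt1a 0.0508, Cpt2 0.0192 and Acadl 0.0220 for supplemented against standard, and Cpt1a -0.0437 for deficient against supplemented. With the Gapdh ratio as a covariate they were Cpt2 0.0311 and Slc16a1 0.0317 for deficient against standard, and Acadm -0.10, Acadvl -0.0385, Hadhb -0.15 and Slc16a1 -0.18 for supplemented against standard, and Cpt2 0.34, Acadvl 0.0612, Hadhb 0.0950, Slc16a1 0.21 and Pdk2 -0.0372 for deficient against supplemented. With the beta-actin ratio as a covariate they were Cpt2 0.0977 and Slc16a1 0.14 for deficient against standard, and Acadvl -0.0132 and Hadhb -0.0521 for supplemented against standard, and Cpt2 0.34, Acadl 0.21, Acadvl 0.0580, Hadhb 0.0140 and Slc16a1 0.0302 for deficient against supplemented. With the mean of all probe sets of a gene they were Hadha -0.0113 for deficient against standard. Without supplemented 5, standard 10 and deficient 13 they were Acadvl -0.0403, Hadhb 0.0158, Slc16a1 0.0375 and Acat1 -0.14 for deficient against standard, and Acadm -0.00145 for supplemented against standard, and Cpt2 0.0176 for deficient against supplemented. With 1 array left out, for deficient against standard, Cpt1a ran from -0.13 to 0.50, Cpt2 ran from -0.18 to 0.13, Acadvl ran from -0.0607 to 0.0945, Hadha ran from -0.0228 to 0.13, Hadhb ran from -0.27 to 0.0485, Slc16a1 ran from -0.38 to 0.20 and Acat1 ran from -0.0437 to 0.21. With 1 array left out, for supplemented against standard, Cpt1a ran from -0.35 to 0.28, Cpt2 ran from -0.19 to 0.14, Acadl ran from -0.33 to 0.0893 and Hadhb ran from -0.0154 to 0.16. With 1 array left out, for deficient against supplemented, Cpt1a ran from -0.0598 to 0.50, Cpt2 ran from -0.14 to 0.16, Acadl ran from -0.32 to 0.0945 and Acadvl ran from -0.12 to 0.0153. Counts of probe sets called moved with few calls to move. For deficient against standard the count was 0, and 1 with no filter. For supplemented against standard it was 0, and 1 with the floor at the 30th percentile, with no trend and with array weights; with 1 array left out it ran from 0 to 2 (2 without supplemented 2, 1 without standard 9, deficient 13 or deficient 14). For deficient against supplemented it was 1, and 0 on the values as deposited, with the filter at the 60th percentile, with only 2 diets in the fit, with either ratio as a covariate and without the 3 arrays that stood apart; it was 2 with no filter. With 1 array left out it ran from 0 to 4 (4 without deficient 14, 3 without supplemented 2, 0 without supplemented 1, 3 or 4, standard 8 or deficient 11, 12 or 13). For any difference among the diets it was 1, was 0 under the same settings but for the 2-diet fit, which gives no such test, was 2 with no filter, and ran from 0 to 3 with 1 array left out (3 without supplemented 2, 2 without deficient 14, 0 without deficient 11, 12 or 13, supplemented 1, 3 or 4 or standard 6, 7, 8 or 10). At an unadjusted p under 0.05 limma's counts were 156, 456 and 669 in the 3 comparisons, and 141, 132 and 113 with the Gapdh ratio as a covariate. No paired analysis was possible because the array numbers run on from diet to diet and no number is shared between diets. The 4 or 5 arrays of a diet and the unknown background level limit what could be detected.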
